A study of Mus musculus with 6 samples.

Results

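The 10 genes described here encode enzymes of leukotriene and prostaglandin synthesis and 1 prostaglandin receptor: Pla2g4a, Alox5, Alox5ap, Lta4h, Ltc4s, Ptgs1, Ptgs2, Tbxas1, Hpgds and Ptger4. They were taken by symbol from the 53465 genes of the deposited table, each symbol matched 1 row, and all 10 passed the filter on low counts that left 15533 genes for testing. RNA sequencing was done on mouse bone marrow cells that were sorted with the gate for haematopoietic stem cells of the long-term kind (LT-HSCs), namely cells without lineage markers or surface Flk2 and CD34 that carried Sca-1 and c-Kit. All mice were wild type, were irradiated over the whole body with 5.0 Gy and were then given saline (3 libraries) or carnosine, the dipeptide of beta-alanine and histidine (3 libraries). Every group was thus irradiated. In the sources used here the carnosine dose, the time of sampling, the age of the mice and any pooling of marrow are not given. P-values therefore cover differences among the sequenced libraries only, and these may be technical.

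Eicosanoids are short-lived signalling lipids made from arachidonic acid. Cytosolic phospholipase A2 frees arachidonic acid from membranes, and from there a lipoxygenase branch leads to leukotrienes and a cyclooxygenase branch to prostaglandins and thromboxane. In bone marrow, mature myeloid cells, mast cells, platelets and stromal cells are known sources, and prostaglandin E2 is known to act on stem and progenitor cells through its receptors.

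Unless FPKM is named, levels are CPM, that is, counts relative to the library's size after TMM scaling. Total counts ran from 12602067 to 16866534 per library. Of all genes tested, 39.4% passed with carnosine against saline, made up of 19.6% that rose and 19.8% that fell, at a Benjamini-Hochberg adjusted p under 0.05 in edgeR's quasi-likelihood test, and for 52.3% of them the CPM of the groups did not overlap. Transcripts of the 4 gate genes (Ly6a, Kit, Flt3, Cd34) summed to 872 to 925 CPM with saline and 874 to 900 CPM with carnosine. The similar sums hide opposite changes. Kit rose (log2 fold change 0.20, adjusted p = 0.0015, edgeR), Flt3 fell (-0.22, adjusted p = 0.0023, edgeR) and the other 2 did not pass. Those sorted for were Ly6a, the gene of Sca-1 (means of 30.2 CPM with saline and 29.2 CPM with carnosine), and Kit (330 and 378 CPM). Flt3 (210 and 180 CPM) and Cd34 (329 and 301 CPM) were present as well, although the sort was for cells without these proteins. Of 8 markers of long-term stem cells, led by Vwf and Hlf, 7 were tested. With carnosine 5 of these fell, 0 rose and 2 did not pass, with a median log2 fold change of -0.90. Hlf was among those that did not pass (log2 fold change -0.0063, adjusted p = 0.99, edgeR). Vwf was among those that fell and changed most in CPM, its means being 107 CPM for saline and 30.5 CPM for carnosine. The list, Vwf included, summed to 196 to 218 CPM with saline and 94.0 to 98.6 CPM with carnosine, and no marker in it was at 0 in all libraries. LT-HSC is used as the name of the gate, and the part of this shift in the results on the 10 genes was not tested.

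Of the 10 genes, 1 rose and 5 fell with carnosine, and 4 did not pass the test. Lta4h rose, and Ptgs2, Tbxas1, Alox5, Ltc4s and Ptger4 fell, with Ptgs2 showing the largest change of the 10. The falls made up 50% of the 10 genes beside 19.8% of all genes tested, and the rise 10% beside 19.6%; together 6 of 10 passed, beside 39.4%. The groups did not overlap in CPM for 7 of the 10 genes, beside 52.3% of all genes tested. The median log2 fold change of the 10 was -0.20, with values from -1.81 to 0.64, against a median of -5.03e-05 over all genes tested. The genes were chosen with earlier results of these data known, so these shares describe the list and test nothing about it.

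**Figure D1:**
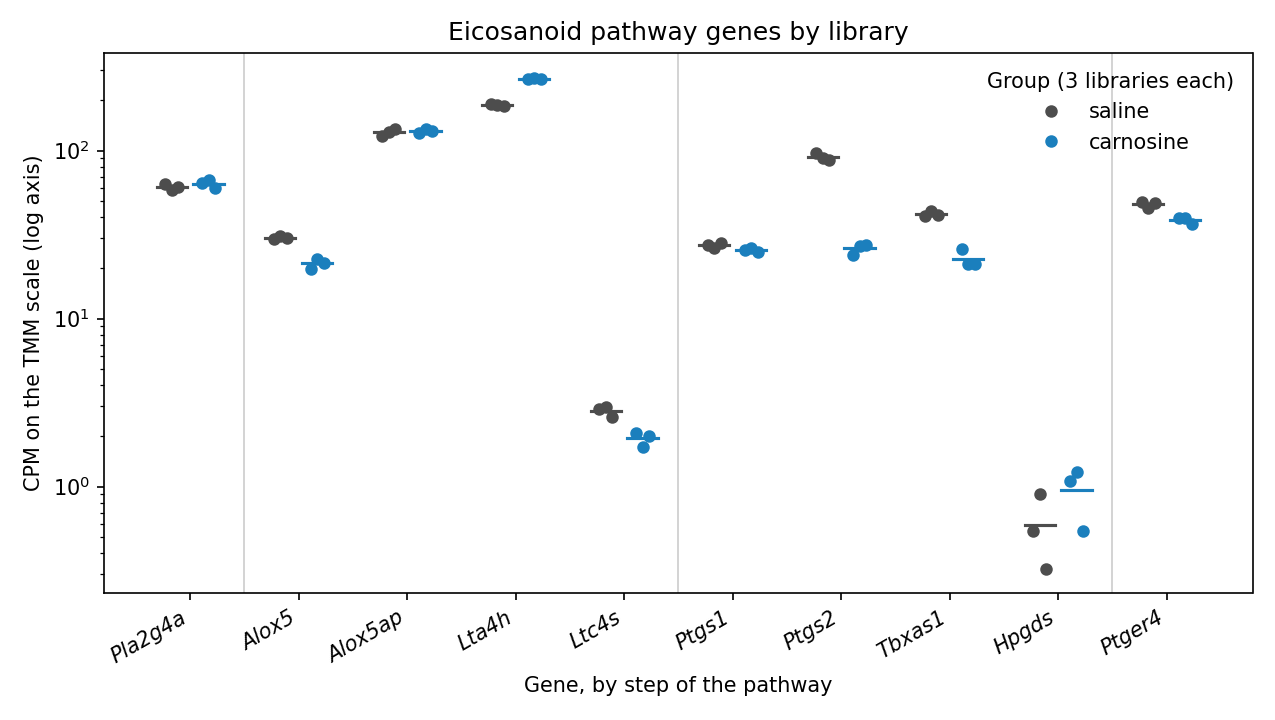
CPM of each gene in each of the 6 libraries (points) on a log axis, with the mean of the 3 libraries of a group as a line; grey lines part release, the leukotriene branch, the prostanoid branch and the receptor. Ptgs2 lay between 88.3 and 97.2 CPM with saline and between 24.0 and 27.5 CPM with carnosine, while Lta4h was higher in every carnosine library.

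In the cyclooxygenase branch, the inducible isoform fell and the constitutive isoform did not pass the test. Ptgs2 encodes cyclooxygenase-2, which converts arachidonic acid to the prostaglandin precursor and which cells switch on quickly after a stimulus. It lies on chromosome 1, 150100031 to 150108227 (GRCm38, plus strand, ENSMUSG00000032487), and no other annotated gene overlaps it. Ptgs2 was at 97.2, 90.6 and 88.3 CPM in the saline libraries and at 24.0, 27.0 and 27.5 CPM in the carnosine libraries. Every carnosine library was thus below every saline library, by 71.6% in the fit, with a log2 fold change of -1.81 ± 0.0682 (SE) and adjusted p = 2.5e-06 (edgeR). Only 1.15% of all genes tested had a lower log2 fold change. Of 8 stromal and endothelial markers, led by Pdgfrb and Col1a2, 4 were tested, of which 3 fell (Pdgfrb, Kdr and Cdh5) and 0 rose, and the list summed to 62.4 to 67.8 CPM with saline and 46.7 to 48.7 CPM with carnosine. The stromal markers Lepr, Pdgfra and Col1a1 had 0 to 3 counts per library, and the part of such cells in the Ptgs2 result was not tested. Ptgs1 encodes cyclooxygenase-1, the isoform that many cells make at a steady level (chromosome 2, 36230426 to 36252272, plus strand). Ptgs1 was at 27.3, 26.4 and 28.3 CPM with saline and at 25.6, 26.3 and 24.8 CPM with carnosine. The CPM ranges of the groups came close without overlapping, and the deposited FPKM ranges did overlap (4.36 to 4.65 with saline, 4.25 to 4.52 with carnosine). Its log2 fold change was -0.09 ± 0.0581 (SE; adjusted p = 0.24, edgeR).

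The balance between the isoforms was therefore different in the 2 groups. Per gene length, Ptgs2 made up 81.8%, 81.3% and 79.8% of the summed Ptgs1 and Ptgs2 FPKM in the saline libraries and 54.3%, 56.4% and 58.4% in the carnosine libraries. The means were 81.0 ± 1.04% and 56.3 ± 2.06% (SD, n = 3 each), a difference of -24.6 percentage points. An exact permutation test, two-sided, returned p = 0.10, which is the lowest that 3 against 3 libraries can reach. This share does not depend on how libraries are scaled, but it depends on the lengths used. With counts per kilobase of all annotated exons, chosen after the data were seen, it was 74.0% with saline and 46.4% with carnosine, so the more abundant isoform in the carnosine group changes with the length used, while the fall does not.

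**Figure D2:**
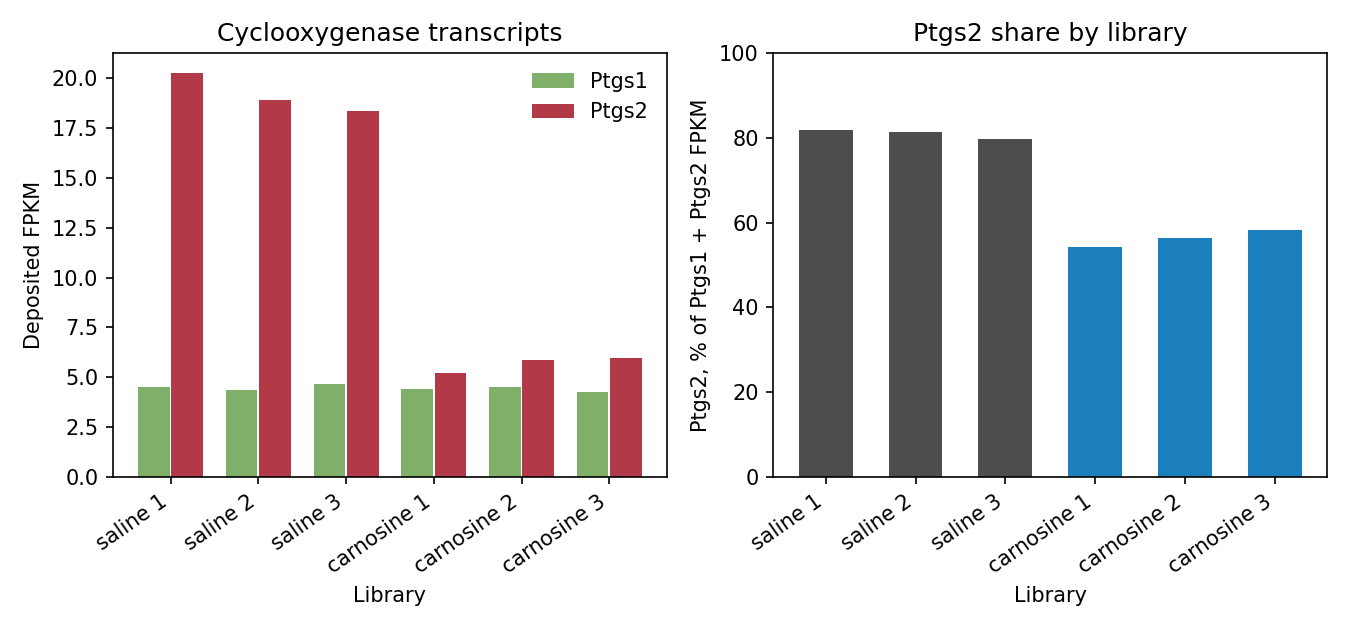
Left, deposited FPKM of Ptgs1 and Ptgs2 in each library; right, Ptgs2 as a percentage of the summed FPKM of both genes in each library, on an axis from 0 to 100%. Ptgs1 stays between 4.25 and 4.65 FPKM in the 6 libraries while Ptgs2 is 18.4 to 20.2 FPKM with saline and 5.21 to 5.96 FPKM with carnosine.

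The 250 bases before the RefSeq start of the 2 isoforms, and of Lta4h as the gene that rose, are shown because the isoforms differed in response. They come from RefSeq's promoter table for GRCm38.p6, which held 9 of the 10 genes (Alox5ap had no entry), and are written 5′ to 3′ on the gene's strand. The bases shown for Ptgs2 also hold exon sequence of Ptgs2os, an annotated gene on the opposite strand with 0 or 1 counts per library. Those of Ptgs1 and Lta4h hold no annotated exon. Capitals mark matches to the motifs searched on either strand.
Ptgs2, chr1:150099781-150100030, plus strand: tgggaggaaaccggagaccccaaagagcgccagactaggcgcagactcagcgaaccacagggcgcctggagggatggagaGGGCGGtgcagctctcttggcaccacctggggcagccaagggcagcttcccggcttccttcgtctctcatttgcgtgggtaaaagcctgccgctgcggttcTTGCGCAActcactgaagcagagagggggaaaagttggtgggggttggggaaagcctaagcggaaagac
Ptgs1, chr2:36230176-36230425, plus strand: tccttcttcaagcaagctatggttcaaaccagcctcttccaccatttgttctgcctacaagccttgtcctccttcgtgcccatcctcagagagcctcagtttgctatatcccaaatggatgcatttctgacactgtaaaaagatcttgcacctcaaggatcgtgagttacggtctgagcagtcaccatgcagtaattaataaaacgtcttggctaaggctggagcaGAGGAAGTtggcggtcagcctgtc
Lta4h, chr10:93453146-93453395, plus strand: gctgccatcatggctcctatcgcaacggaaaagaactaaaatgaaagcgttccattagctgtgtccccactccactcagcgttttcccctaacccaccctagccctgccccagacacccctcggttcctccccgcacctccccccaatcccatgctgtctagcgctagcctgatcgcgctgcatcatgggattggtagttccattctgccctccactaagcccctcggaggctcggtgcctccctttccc

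Counted from the RefSeq start of Ptgs2, bases 6 to 29 after it hold a cAMP response element core that overlaps an E-box, marked together in capitals. Whether transcription began at this annotated start in these cells was not tested, so the element may lie before or after the start in use.
Ptgs2, chr1:150100036-150100059, plus strand: caccactACGTCACGTGgagtccg

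Motifs were searched on both strands in the 300-base windows that also take in 50 bases after the start. For the TATA box the letters TATAAA were searched, and for the core of the cAMP response element TGACGT. The E-box was searched as CACGTG and the site known for the factor AP-1 as TGANTCA. The palindrome known for the factors of the C/EBP family was searched as TTGCGCAA, and the box known for the factor SP1 as GGGCGG. Sites known for the GATA family were searched as AGATAA, and those of the ETS family as GAGGAAGT. The NF-kB and CArG box consensus sequences were searched as well. The Ptgs2 window matched TTGCGCAA, 69 to 62 bases before the start, as did 0.183% of the 32851 RefSeq windows. It also matched TGACGT (7.51% of windows), CACGTG (7.15%, sharing 2 bases with it) and GGGCGG (35.7%). The Ptgs1 window matched GAGGAAGT, 24 to 17 bases before the start (3.20% of windows), and so did that of Hpgds. The Tbxas1 window (38918736 to 38919035) lies inside the gene as annotated, which begins at 38875404, so its RefSeq start is an internal one. This window matched TATAAA (13.6%) and TGANTCA (7.81%). The windows of Lta4h and Ltc4s matched none of these letters, which says nothing on the factors themselves. In base composition, the 250 bases of Ptgs2 held 61.6% G and C with 13 CpG, those of Ptgs1 48% with 5 CpG, and those of Lta4h 58.8% with 11 CpG, against medians of 52.4% and 6 over all windows.

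Thromboxane synthase and prostaglandin D synthase, which act on the cyclooxygenase product, were at very different levels. Tbxas1, which encodes thromboxane A synthase, the source of the platelet activator thromboxane (chromosome 6, 38875404 to 39084585, plus strand), was at 40.9, 43.7 and 41.3 CPM with saline. In the carnosine libraries Tbxas1 was at 25.8, 21.2 and 21.2 CPM, below all saline libraries, with the first of them highest. It fell by 0.88 ± 0.0879 on the log2 scale (SE; adjusted p = 0.00026, edgeR). The long gene body of Tbxas1 overlaps Hipk2 and other genes on the opposite strand, but the exons of Hipk2 and Tbxas1 share 0 bases, and those of Gm42962, with 0 to 4 counts per library, share 144. Hpgds, the haematopoietic prostaglandin D synthase known from mast cells and macrophages (chromosome 6, 65117293 to 65144908, minus strand), was close to absent. It had 9, 14 and 4 counts in the saline libraries and 15, 17 and 7 in the carnosine libraries, or 0.593 ± 0.295 and 0.948 ± 0.361 CPM (SD, n = 3 each). The ranges overlapped, the coefficient of variation was 49.7% with saline, and the gene, with a log2 fold change of 0.64 ± 0.439 (SE), did not pass (adjusted p = 0.29, edgeR). Leaving out single libraries moved its log2 fold change between 0.40 and 1.07, so a difference of the size seen in Hpgds was not resolved at this depth.

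Platelet-lineage transcripts moved with Tbxas1. Of 11 megakaryocyte and platelet markers, led by Itga2b and Itgb3, 10 were tested and all 10 fell, and their summed level was 400.2 to 413 CPM with saline and 183 to 189 CPM with carnosine. None of the 11 was at 0 in all libraries. In these bulk samples fewer cells of a type and less RNA per cell cannot be told apart, and the part of these cells in the Tbxas1 result was not tested.

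In the leukotriene branch, Lta4h rose while Alox5 and Ltc4s fell and Alox5ap did not pass the test. Alox5 encodes arachidonate 5-lipoxygenase, which makes leukotriene A4 from arachidonic acid (chromosome 6, 116410077 to 116461178, minus strand). It was at 29.9, 30.9 and 30.3 CPM with saline and at 19.8, 22.5 and 21.5 CPM with carnosine. The groups did not overlap, and Alox5 fell by 0.51 ± 0.0651 on the log2 scale (SE; adjusted p = 0.00085, edgeR), a level 29.9% lower. Lta4h encodes leukotriene A4 hydrolase, which turns leukotriene A4 into the neutrophil attractant leukotriene B4 (chromosome 10, 93453411 to 93484875, plus strand). Lta4h was at 188.6, 187.7 and 185.3 CPM with saline and at 266.6, 272.3 and 265.2 CPM with carnosine. These were the most even values among the 10 genes, with coefficients of variation of 0.904% and 1.39%. Lta4h rose by 43.2%, a log2 fold change of 0.52 ± 0.0241 (SE) with adjusted p = 6.8e-06 (edgeR), the only rise of the 10.

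Alox5ap encodes the membrane protein that presents arachidonic acid to 5-lipoxygenase (chromosome 5, 149264767 to 149288153, plus strand). It was at 122.2, 129.5 and 133.8 CPM with saline and at 127.9, 134.1 and 130.1 CPM with carnosine. The ranges overlapped and the gene, with a log2 fold change of 0.02 ± 0.0412 (SE), did not pass (adjusted p = 0.67, edgeR). Ltc4s encodes leukotriene C4 synthase, a relative of the Alox5ap protein in the MAPEG family of membrane enzymes, which joins leukotriene A4 to glutathione to start the cysteinyl leukotrienes (chromosome 11, 50236461 to 50238616, minus strand). It was low, with 48, 46 and 32 counts in the saline libraries and 29, 24 and 26 in the carnosine libraries. On the CPM scale these were 2.91, 2.99 and 2.60 against 2.09, 1.73 and 2.01, and the groups did not overlap. Ltc4s passed with a log2 fold change of -0.55 ± 0.155 (SE) and adjusted p = 0.027 (edgeR), but the call was lost in 7 of its 12 alternatives, with adjusted p-values from 0.028 to 0.25 over all 12. Among these were leaving out saline replicate 1 or 2 (adjusted p = 0.079 and 0.082, edgeR) or carnosine replicate 1, 2 or 3 (0.052, 0.092 and 0.060), and DESeq2 (0.25). An antisense gene, Gm26542, shares 268 exon bases with Ltc4s and had 9 to 16 counts per library, Gm19719 shares 189 with Alox5ap and had 34 to 65 counts, Gm43621 shares 148 with Ptgs1 and had 13 to 21 counts, and the sources used here do not state whether strand was used in counting.

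Within a library, the level of Alox5ap exceeded that of Ltc4s by far. Alox5ap made up 98.2 ± 0.184% of the summed FPKM of both genes with saline and 98.8 ± 0.140% with carnosine (SD, n = 3 each). The groups did not overlap in this share, with an exact two-sided permutation p = 0.10, the smallest possible with 3 against 3. As Alox5ap did not pass the test, this difference rests on the low counts of Ltc4s, whose call held in 5 of 12 alternatives. It is not a result apart from that of Ltc4s.

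Transcripts of myeloid and mast cell types moved with these genes in different directions. Of 10 mast cell and basophil markers, led by Gata2 and Cpa3, 9 were tested, 6 fell and 1 rose, and the list summed to 617 to 639.5 CPM with saline and 388 to 402 CPM with carnosine. Gata2 is not particular to these cells, and its means were 357 CPM with saline and 197 CPM with carnosine. The summed fall is thus in large part that of Gata2 and does not describe mast cells and basophils alone. Of 10 monocyte and macrophage markers, led by F13a1 and Lyz2, 5 of 9 tested fell and 0 rose, while the summed levels overlapped (440.2 to 576 and 449.6 to 481 CPM). All 10 genes listed as myeloid progenitor markers, led by Mpo and Calr, rose, from 5961 to 6015 CPM with saline to 10676 to 10911 CPM with carnosine in sum. Calr is not particular to such cells, so this sum does not describe myeloid progenitors alone. Of 9 eosinophil markers, led by Siglecf and Prg2, 4 of 6 tested rose and 0 fell (39.5 to 43.3 and 72.0 to 75.5 CPM). Of 10 neutrophil markers, led by S100a8 and Ngp, 8 were tested, of which 3 fell and 2 rose (45.5 to 48.7 and 29.1 to 34.4 CPM in sum). Ngp, a gene of neutrophil granules, fell from 12.9 ± 1.22 to 3.16 ± 0.447 CPM, while S100a8 rose from 5.93 ± 0.736 to 10.8 ± 1.85 CPM (SD, n = 3 each), and the neutrophil marker Ly6g was at 0 in all saline libraries. Of 7 B and plasma cell markers, led by Jchain and Xbp1, Xbp1 rose, Ms4a1 fell and 5 did not pass (467 to 481 and 476 to 776 CPM). No marker in these lists was at 0 in all 6 libraries, and the part of such cells in the Alox5, Ltc4s and Lta4h results was not tested.

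The first step of the pathway and the receptor changed little or modestly. Pla2g4a encodes cytosolic phospholipase A2 alpha, which releases arachidonic acid in response to calcium (chromosome 1, 149829618 to 149961290, minus strand). It was at 63.0, 58.2 and 60.7 CPM with saline and at 63.8, 67.0 and 60.0 CPM with carnosine, with overlapping ranges, and did not pass (adjusted p = 0.38, edgeR), its log2 fold change being 0.07 ± 0.0569 (SE). Pla2g4a is the neighbour of Ptgs2: the genes lie 138.7 kb apart with 3 small annotated genes between them, which together had 1 count in the 6 libraries. Ptger4 encodes EP4, a receptor for prostaglandin E2 that raises cyclic AMP (chromosome 15, 5206661 to 5244187, minus strand). It was at 49.3, 45.8 and 48.8 CPM with saline and at 39.9, 39.5 and 36.5 CPM with carnosine. All carnosine libraries were lower, and Ptger4 fell by 0.31 ± 0.0580 on the log2 scale (SE; adjusted p = 0.0050, edgeR), a level 19.4% lower. On the opposite strand the pseudogene Gm15937, with 0 to 4 counts per library, shares 1015 exon bases with Ptger4, and Ttc33, with 254 to 375 counts, shares 82.

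**Figure D3:**
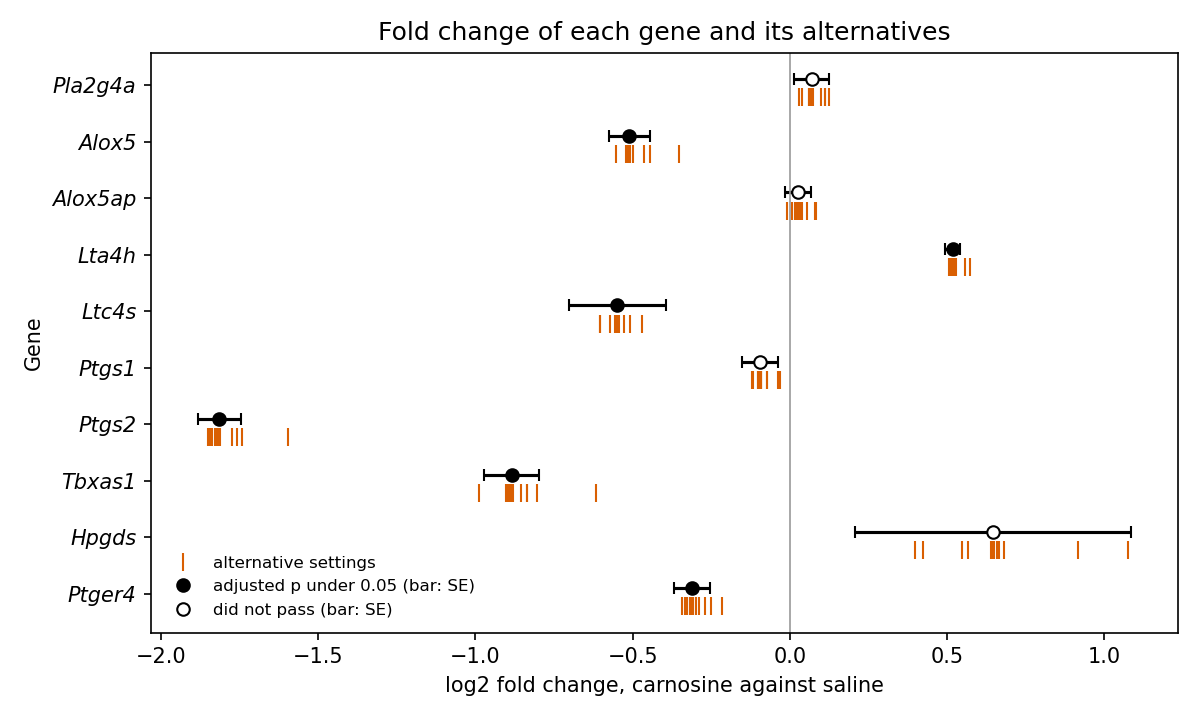
Log2 fold change of each gene, carnosine against saline, in edgeR (circle, with its SE as a bar; filled where the adjusted p was under 0.05) and in the alternative settings (orange ticks). Ptgs2, Tbxas1, Alox5 and Ptger4 lie below 0 and Lta4h above 0 in all 15 alternatives, while the ticks of Alox5ap fall on both sides of 0.

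Compared per gene length, the order of the genes by deposited FPKM was Alox5ap, Lta4h, Ptgs2, Pla2g4a, Ptger4, Ptgs1, Alox5, Tbxas1, Ltc4s and Hpgds in the saline group. Alox5ap was at 56.4 ± 2.55 FPKM, Lta4h at 23.8 ± 0.244 FPKM and Hpgds at 0.0755 ± 0.0377 FPKM (SD, n = 3). In that order only the neighbours Alox5 and Tbxas1 (4.01 ± 0.0733 and 3.83 ± 0.143 FPKM) had overlapping ranges. With carnosine, Ptgs2 moved from the third to the fourth place, below Pla2g4a, at 5.67 ± 0.402 FPKM, where its range overlapped that of Ptger4 (5.19 ± 0.252 FPKM). Alox5ap (59.7 ± 1.43 FPKM) and Lta4h (35.5 ± 0.508 FPKM) kept the first places. The lengths behind the deposited FPKM were 1.02 to 2.70 times those of all annotated exons of these genes. With exon lengths in their place Ptgs2 was sixth with carnosine, below Ptgs1 and Ptger4, and its range overlapped those of Ptger4 and Alox5, so its place with carnosine depends on the length used. With these lengths the first 4 genes with saline and the last 3 were the same, while Alox5, Ptger4 and Ptgs1 could not be ordered, since the ranges of neighbours overlapped.

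Among 68 other genes of the pathway, from a list chosen with earlier results known, 44 were tested, of which 15 rose, 3 fell and 26 did not pass. The rises were 34.1% and the falls 6.82% of those tested, beside 19.6% and 19.8% of all genes, and the median log2 fold change was 0.08. The rises include Dpep2, which passed the filter on low counts through the carnosine group alone.

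Of the genes for release and reuse of arachidonic acid, 7 of 14 tested rose and 0 fell. Anxa1, whose protein annexin A1 is a known restraint on phospholipase A2, rose from 47.7 ± 1.87 to 90.6 ± 1.10 CPM (SD over 3 libraries each, a log2 fold change of 0.93). Daglb, a lipase that makes the arachidonate carrier 2-arachidonoylglycerol, rose from 17.5 ± 0.191 to 29.0 ± 0.641 CPM, and the lysosomal phospholipase Pla2g15 from 17.1 ± 0.535 to 22.9 ± 0.543 CPM. The secreted phospholipase Pla2g12a (32.6 ± 2.52 and 42.9 ± 5.51 CPM) passed with an adjusted p of 0.022 in edgeR, a call lost when saline replicate 2 or 3 was left out (0.068 and 0.069), and without carnosine replicate 1 (0.071) or 2 (0.072). Mboat7 and Lpcat3, which put fatty acids back into phospholipids, did not pass (log2 fold changes -0.13 and 0.11).

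Of the other leukotriene and lipoxygenase genes, 3 of 9 tested rose and 2 fell. Dpep2, a dipeptidase that converts leukotriene D4 to E4, was called higher, but it passed the filter on low counts through the carnosine group alone, so it had to differ and does not support the count of rises. It had 6, 3 and 2 counts in the saline libraries and 27, 28 and 18 in the carnosine libraries, and a second row with its symbol, not added here, had 8 counts in all, 7 of them in saline replicate 3. Mgst2, a MAPEG enzyme that can also make leukotriene C4, rose from 4.71 ± 0.826 to 9.62 ± 0.590 CPM (SD over 3 libraries each). Its CPM was above that of Ltc4s in every library of both groups. CPM does not allow for gene length, so this does not order Mgst2 and Ltc4s by abundance. The epoxide hydrolase Ephx2 rose from 3.33 ± 0.516 to 5.61 ± 0.876 CPM. The leukotriene C4 exporter Abcc1 fell from 149.8 ± 5.70 to 126 ± 4.27 CPM, and Cotl1, whose protein binds 5-lipoxygenase, from 115.3 ± 6.14 to 96.9 ± 2.24 CPM. Mgst3 and Ggt5 did not pass (log2 fold changes -0.13 and -0.10).

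Among genes of prostanoid synthesis, transport and breakdown, 3 of 10 tested rose and 0 fell. Abcc4, an exporter of prostaglandins, rose from 77.8 ± 4.08 to 107.8 ± 2.90 CPM and Ptgr1, a reductase that inactivates prostaglandins and leukotriene B4, from 27.6 ± 2.63 to 44.2 ± 1.06 CPM (SD, n = 3 each). Ptges3, known as the co-chaperone p23 and as a cytosolic prostaglandin E synthase, rose from 177.4 ± 4.74 to 193 ± 0.508 CPM, a call lost with DESeq2 (adjusted p = 0.10) and with no filter on low counts (0.053). Ptgr2 and Gpx4 did not pass (log2 fold changes -0.05 and -0.11). Ptges, the inducible prostaglandin E synthase often paired with cyclooxygenase-2, was too low to be tested.

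Of the other receptors, 2 of 11 tested rose and 1 fell. Ltb4r1, the high-affinity receptor for leukotriene B4, rose from 3.51 ± 0.412 to 8.49 ± 0.558 CPM (SD over 3 libraries each), which is 1.27 ± 0.125 on the log2 scale (SE), and the prostacyclin receptor Ptgir from 4.42 ± 0.215 to 7.40 ± 0.785 CPM. Ptger3, which encodes the prostaglandin E2 receptor EP3, fell from 44.0 ± 3.27 to 37.6 ± 1.82 CPM. Its adjusted p of 0.038 in edgeR was lost in 10 of 15 alternatives, where it reached 0.12. Ptger1 and Cysltr2 did not pass (log2 fold changes -0.07 and -0.06). Along the path to leukotriene B4 and its receptor, Lta4h and Ltb4r1 thus rose, Alox5 fell, and Pla2g4a and Alox5ap did not pass.

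**Figure D4:**
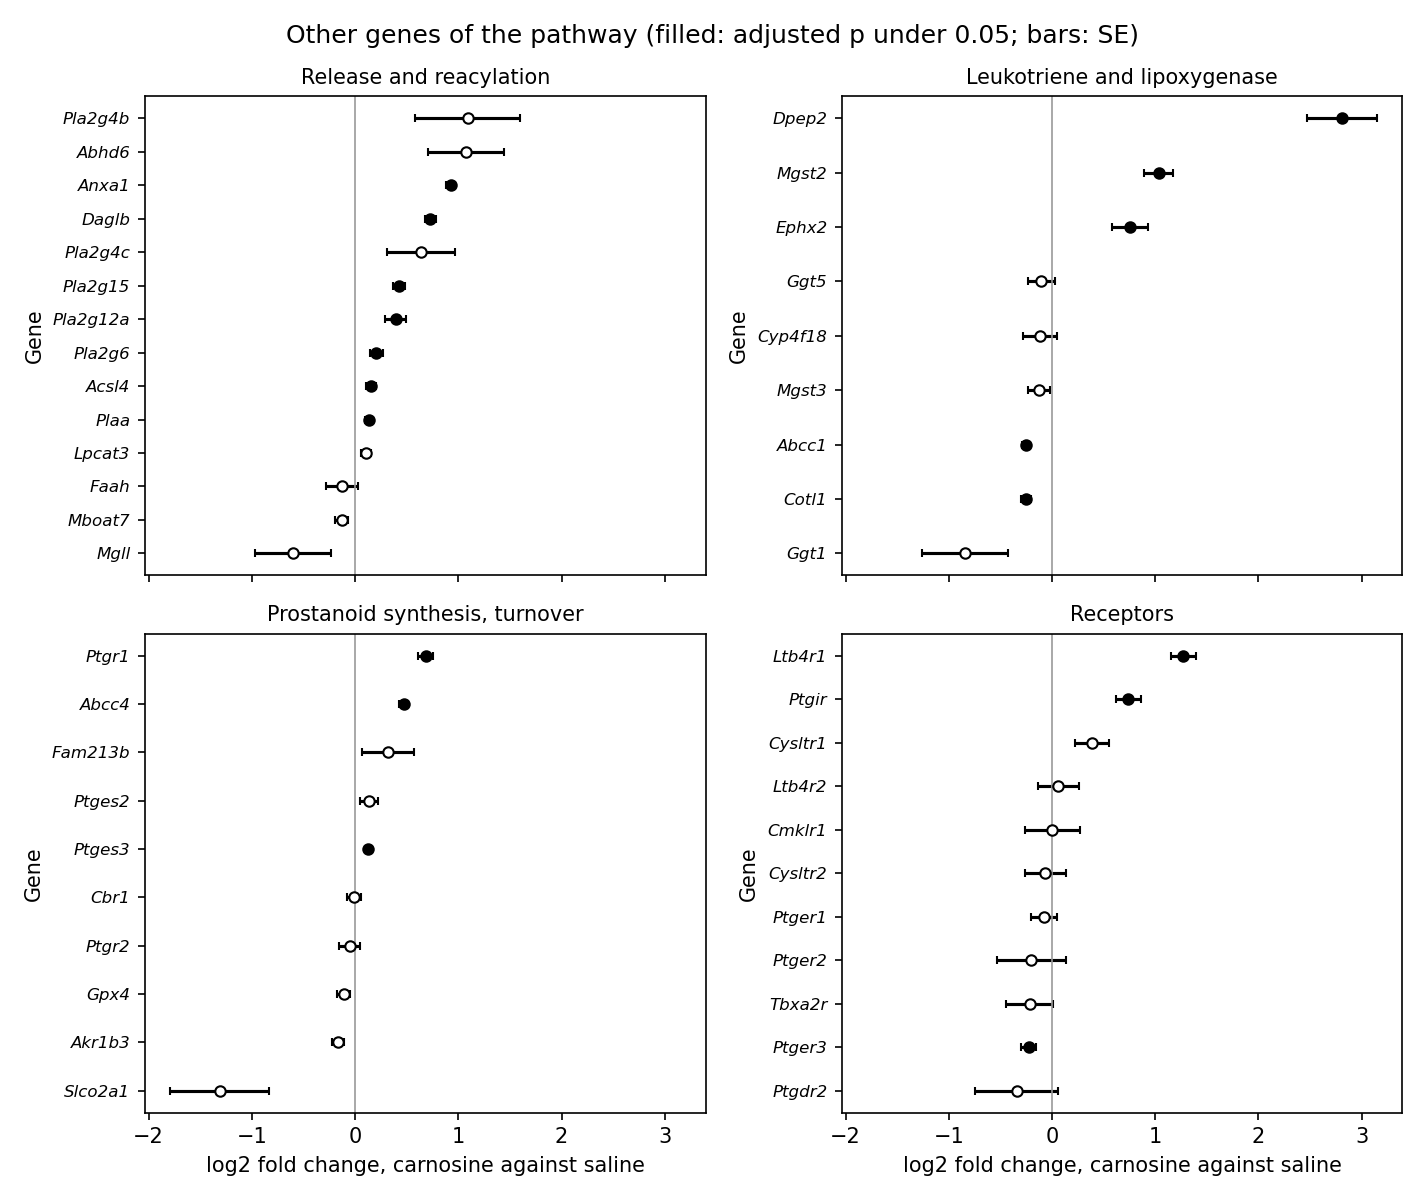
Log2 fold change (carnosine against saline) of the 44 other pathway genes tested, in 4 panels by step, with the SE as a bar; filled circles had an adjusted p under 0.05 in edgeR. Among release genes all 7 filled circles lie above 0, while filled circles lie on both sides of 0 for leukotriene genes and for receptors.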

How the data were processed

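Poly-A RNA was made into stranded paired-end libraries, per the labels' protocols. The submitters' processing notes name CASAVA 1.8, HISAT2, StringTie, edgeR and the build GRCm38, without roles; the sources used here do not state the annotation, the use of strand or the treatment of shared reads. The deposited counts are whole numbers, not normalized, and the deposited FPKM values are the authors' own, per the file headers. Gene positions were taken from the table and GENCODE M21 (GRCm38).

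Counts were tested in R 4.3.3 with edgeR 4.0.16: filterByExpr, TMM scaling, quasi-likelihood F-test of carnosine against saline with no covariate, Benjamini-Hochberg adjustment over 15533 genes at 0.05. The SE is the log2 fold change divided by the square root of F. Libraries of a group differed by 1.74 to 2.02 times sampling noise, so none was counted as a duplicate. Same-numbered libraries did not deviate together (r of -0.0615, 0.0332 and 0.0355 over 9965 genes of at least 10 CPM). On simulated counts for 15533 genes of this comparison, 80 of 100 genes changed 2-fold and 20 of 100 changed 1.3-fold were called. Only 105 genes were called in all there, beside 39.4% of genes in the data. The adjusted p depends on that share, so these rates need not hold for the data. Alternatives used DESeq2 1.42.0 and limma 3.58.1 as well.

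The 10 genes and the lists were chosen with earlier results of these data known. Named from each further pathway list were up to 4 genes per direction with the smallest p at 1 CPM or more, and the 2 most abundant that did not pass; of each marker list used, the 2 most abundant. Kdr, Cdh5, Lepr, Pdgfra, Col1a1, Ly6g and Ms4a1 were named after their values were seen.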

Additional observations from a re-analysis of the deposited data

How the results depend on the processing

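Alternatives were other scalings (DESeq2 size factors, upper quartile), other filters, DESeq2, limma-voom, limma-trend on log2(FPKM + 1) and log2(FPKM + 0.1), a replicate block, and each library left out. Lta4h, Ptgs2, Tbxas1, Alox5 and Ptger4 kept direction and call in 15 of 15. Some log2 fold changes near 0 turned their sign when single libraries were left out, which gave -0.0096 to 0.053 for Alox5ap (below 0 without saline replicate 1), -0.21 to 0.014 for Ggt5, -0.12 to 0.053 for Ptgr2 and -0.18 to 0.049 for Ptger1 (all 3 above 0 without carnosine replicate 3). For Cysltr2 they ran from -0.26 to 0.063, above 0 without saline replicate 1 (0.0049) or carnosine replicate 1. None of these passed the test in any setting. Mboat7 passed without carnosine replicate 3 (adjusted p = 0.031, edgeR), and Lpcat3 passed in limma-trend on FPKM (0.026). Same-numbered libraries share only a number. With the replicate block, 2552 genes were higher and 2679 lower, 5 of the 6 calls among the 10 genes held, and the call of Ltc4s was lost (adjusted p = 0.071, edgeR). Over all genes, 3038 were higher and 3077 lower; limma-trend on log2(FPKM + 1) gave 3387 and 2156 of 13348, and DESeq2 2149 and 2301. Leaving out single libraries gave 2491 to 2590 higher and 2591 to 2727 lower, with 1 rise and 4 to 5 falls among the 10 genes, 11 to 16 rises and 2 to 4 falls among the further genes, and Ptgs2 shares lower by 23.6 to 25.6 percentage points (-23.6 to -25.6). Depth limits Hpgds and Ltc4s, with 4 to 48 counts per library.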

Other observations

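A pair of lipoxygenase genes lay under the filter on low counts and so were not tested; they are given because they were noticed after their values were seen. Alox12, the platelet lipoxygenase, was at 0.606, 0.844 and 0.569 CPM in the saline libraries and at 0.144, 0 and 0.232 CPM in the carnosine libraries. Alox15, the reticulocyte and macrophage lipoxygenase, was at 0.424, 0.844 and 0.406 CPM with saline and at 0.288, 0.0721 and 0.154 CPM with carnosine. For both genes the groups did not overlap, as was the case for 52.3% of the genes tested, and these levels rest on few counts. That share covers only genes that passed the filter, and it was not computed for genes as low as Alox12 and Alox15.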
